A study of Rattus norvegicus with 10 samples.

Results

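The change from 12 to 24 hr of FGF2 was followed in rat lens explants by comparing 4 of the 10 arrays of the study, the 2 arrays labelled 24 hr against the 2 labelled 12 hr. Lenses came from 3-day-old pups, 6 explants were pooled in each dish, and the replicate arrays were prepared from different cultures. Every explant of the study spent a night in 5 ng/mL FGF2. The 0 hr explants were taken at that point, and the others were then kept in 100 ng/mL FGF2 for 2, 4, 12, or 24 hr. No explant was kept at the low concentration for the same hours, so FGF2 and time in culture cannot be told apart. In the array names the 12 and 24 hr arrays carry consecutive numbers, whereas the 0 hr arrays and the 2 and 4 hr arrays were numbered elsewhere. All values are the intensities deposited for the arrays, and all differences are log2 of 24 hr minus log2 of 12 hr, so that 1 unit is a doubling. A value given in parentheses ahead of an adjusted p is this log2 difference. A transcript below means 1 probe set, a group of short probes that report 1 RNA.

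The lens grows throughout life from a single layer of epithelial cells, which stop dividing at the equator, elongate, and become fiber cells packed with crystallins, bead filament proteins, connexins, and the water channel protein of the fiber membrane. FGF from the eye is the main known inducer of this step, and in explants a low dose of FGF2 favours division and survival whereas a high dose drives fiber differentiation. FGF receptors signal through the MAP kinase cascade to Ets and AP-1 factors, and the same signal raises its own inhibitors, the Sprouty proteins and the dual-specificity phosphatases.

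The explants carried the transcripts of lens. Alpha-crystallin transcripts were among the brightest on all 4 arrays (Cryaa 24632 and 23346 at 12 hr and 24954 and 24383 at 24 hr), and Pax6 (7654 and 7904 at 12 hr and 7719.9 and 7117 at 24 hr) and Prox1 (7514 and 8003 at 12 hr and 8355 and 7714 at 24 hr), which encode lens transcription factors, were bright as well. Genes of 7 marker lists were measured, for leukocytes (13), endothelium (9), pericytes and fibroblasts (10), pigment and ciliary epithelium (9), retinal neurons (8), corneal epithelium (7), and erythrocytes (3). Of all 14217 genes, each by its brightest probe set, 3% rose and 2.91% fell. In the marker lists together no larger a share did, and 1 gene passed the test of the difference. It was Rlbp1, which encodes a retinaldehyde-binding protein, at 27.2 and 31.1 at 12 hr and 78.1 and 84.2 at 24 hr and a log2 difference of 1.48 (standard error 0.10, adjusted p 0.000519), while none of the other 8 genes of the pigment and ciliary list passed. Of these, Rpe65, Dct, and Mlana had negative differences (−0.12, −0.005, and −0.032) and the other 5, Tyr, Tyrp1, Pmel, Mitf, and Otx2, positive ones of 0.050 to 0.16. The sum of the list was 319 and 300.4 at 12 hr and 368 and 388 at 24 hr, with no overlap. It includes Rlbp1, so it does not stand apart from the rise of that gene. Both 24 hr arrays lay above both 12 hr arrays for 2 of the 9 genes, Rlbp1 and Mitf. They lay below for 1, Rpe65, beside 26.5% and 26% of all transcripts above and below. The summed intensity of the leukocyte markers was 787 and 864 at 12 hr and 826 and 849 at 24 hr, and that of the retinal markers was 193 to 199 on all 4 arrays. Single retinal genes, such as Opn1sw (14.3 and 13.8 at 12 hr and 14.3 and 13.2 at 24 hr) and Sag (59.7 and 57.9 at 12 hr and 57.3 and 61.2 at 24 hr), were dim, so a value of that size below is not shown to be above background, and a change that starts or ends there has no exact size. The pericyte and fibroblast sum was 2341 and 2468 at 12 hr against 2306 and 1788 at 24 hr, and the endothelial sum was 1587 and 1487 against 1447 and 1360. The corneal sum, most of it Krt12, was 1788 and 1606 against 966 and 1681, and the erythrocyte sum, most of it Hbb, was 1605 and 1476 against 1376 and 1555. In RNA from whole explants, fewer cells of a type and less RNA per cell cannot be told apart.

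RNA quality also moved with time. The log2 ratio of the 5' to the 3' control probe sets of Actb was −1.30 and −1.43 at 12 hr and −1.75 and −1.88 at 24 hr, with no overlap. That of Gapdh was −0.063 and −0.12 at 12 hr and −0.13 and −0.14 at 24 hr, again lower at 24 hr with no overlap, whereas that of the hexokinase controls overlapped (−1.32 and −1.48 against −1.41 and −1.42). With the Actb ratio as a covariate 1056 transcripts differed, 703 of them among the 1348 described next, and the part of RNA quality in any 1 difference was not tested.

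From 12 to 24 hr, 689 of the 31042 transcripts tested (2.22%) rose and 659 (2.12%) fell at a Benjamini-Hochberg adjusted p under 0.05 (limma), 1348 in all (4.34%). The median change of the transcripts that rose was 0.70 and of those that fell −0.73, while the median over all transcripts was 0.0037. A change of at least 2-fold was seen for 156 of the rises and 165 of the falls. The standard error of a difference was 0.12 at the median. Both 24 hr arrays lay above both 12 hr arrays for 26.5% of all transcripts and below both for 26%, so the order of 4 arrays alone says little about a single transcript. The number depended on single arrays. It was 297 and 180 without replicate 1 or 2 of 12 hr, 582 and 479 without replicate 1 or 2 of 24 hr, and 794 without either of the 0 hr arrays, which enter through the pooled spread only, and 1705 or 1715 without any 1 of the 2 or 4 hr arrays.

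**Figure D1:**
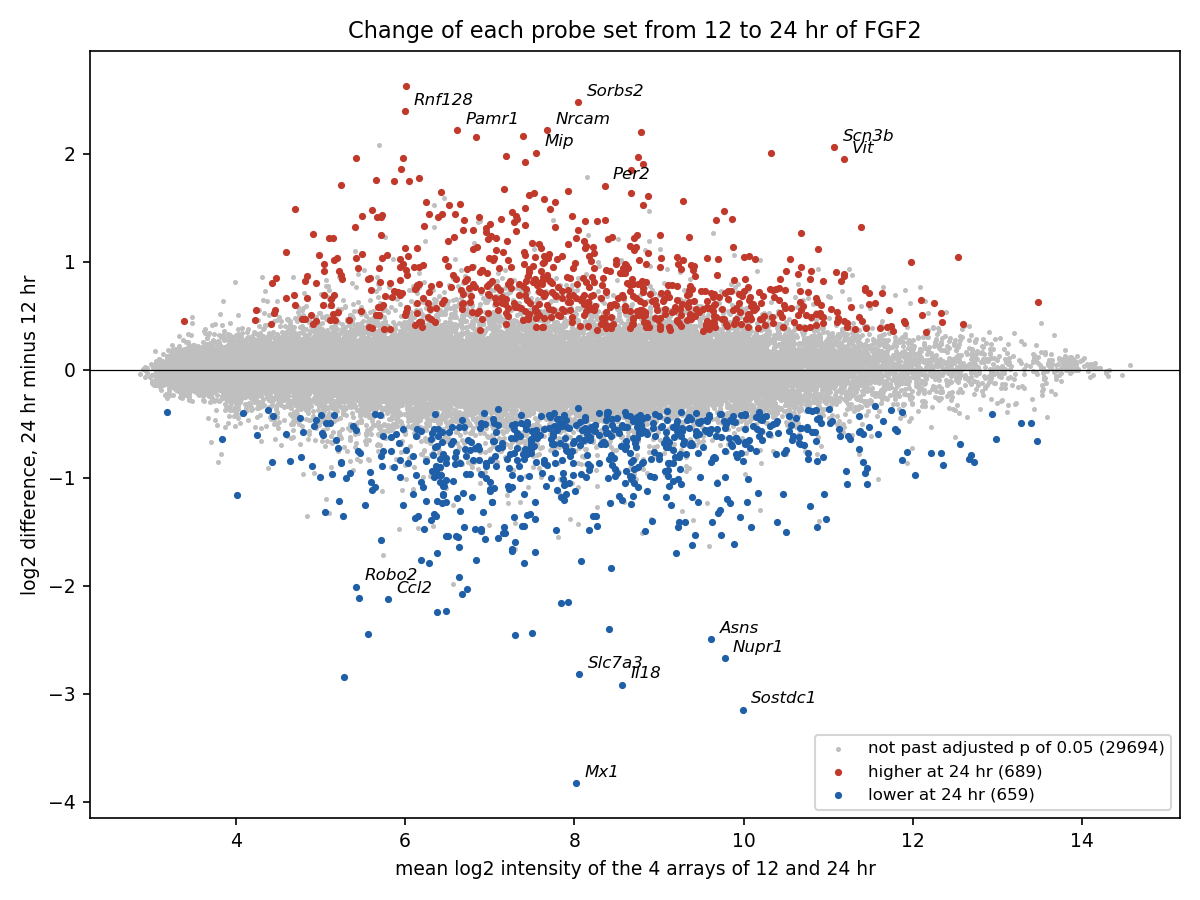
Log2 difference of 24 hr minus 12 hr (vertical axis) against the mean log2 intensity of the 4 arrays (horizontal axis), 1 point per probe set, with 689 rises in red, 659 falls in blue, and the others in grey. The labelled falls reach lower (Mx1 at −3.83) than the labelled rises reach high (Sorbs2 at 2.48).

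Genes of adhesion molecules, a channel subunit, and the lens water channel were among the 15 largest rises. Sorbs2, which encodes an adaptor of the actin cytoskeleton and cell junctions, was at 126 and 100.05 at 12 hr and 723 and 538 at 24 hr. Both 24 hr arrays were thus above both 12 hr arrays, and the log2 difference was 2.48 (standard error 0.21, adjusted p 0.00125), which is 5.56-fold. At 0 hr Sorbs2 was at 311 and 414, between the levels of the later times. Nrcam, a cell adhesion gene of the immunoglobulin superfamily, was at 82.9 and 108 at 12 hr and 517 and 377 at 24 hr (2.22, standard error 0.19, adjusted p 0.00127) at its probe set of largest change, and the other 2 probe sets of Nrcam rose too. Scn3b, which encodes an auxiliary subunit of voltage-gated sodium channels, was one of the brightest of the genes that rose, at 853 and 1308 at 12 hr and 5249 and 3688 at 24 hr (2.06, standard error 0.28, adjusted p 0.00646) against 122 and 115 at 0 hr. Its climb had begun before 12 hr and went on to 24 hr. Vit, which encodes the matrix protein vitrin, was at 1412 and 993 at 12 hr and 4005 and 5201 at 24 hr (1.95, standard error 0.20, adjusted p 0.00254).

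Several of the genes that rose had been near the lower end of the intensities until 12 hr. Rnf128, which encodes an E3 ubiquitin ligase, was at 19.7 and 20.2 at 0 hr, 25.7 and 30.3 at 12 hr, and 205 and 104 at 24 hr (2.39, standard error 0.28, adjusted p 0.00389). Pamr1, which encodes a secreted protease-like protein, was at 48.1 and 42.9 at 12 hr and 210.2 and 212 at 24 hr (2.22, standard error 0.19, adjusted p 0.00125), and its 24 hr arrays were close together. Rbms3, an RNA-binding protein gene, was at 22.6 and 21.0 at 12 hr and 96.0 and 74.5 at 24 hr at the probe set of largest change of its 4, with a log2 difference of 1.96 that came to 1.05 for their mean. Ropn1l (1.75), Pnliprp2 (1.74), the adhesion gene Opcml (1.68), Rapgef5, which encodes an exchange factor for Rap GTPases (1.63), and the histone gene H2ac25 (1.77) rose as well. Cd302, a lectin receptor gene, went from 24.5 and 17.8 at 12 hr to 75.8 and 61.7 at 24 hr (1.71, adjusted p 0.0138), beside 74.0 and 70.5 at 0 hr.

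The largest falls were steeper. Mx1, an interferon-induced GTPase gene, was at 887 and 1077 at 12 hr and 133 and 35.7 at 24 hr, with a log2 difference of −3.83 (standard error 0.58, adjusted p 0.00997). The 24 hr arrays were far apart, and the difference was −2.87 without replicate 2 of 24 hr and −4.78 without replicate 1. Sostdc1, which encodes a secreted antagonist of BMP and Wnt, was at 2305 and 2468 at 0 hr, 2835 and 3220.4 at 12 hr, and 218 and 535 at 24 hr (−3.15, standard error 0.37, adjusted p 0.00389). Il18, an interleukin gene, was at 1130.3 and 958 at 12 hr and 141 and 135 at 24 hr (−2.91, standard error 0.19, adjusted p 0.000519). Replicates of Il18 were close at both times, and the gene had climbed from 108 and 78.9 at 0 hr. Slc22a4, which encodes an organic cation and ergothioneine transporter, was at 15.5 and 11.6 at 0 hr, 111 and 97.4 at 12 hr, and 15.7 and 13.3 at 24 hr (−2.84, standard error 0.20, adjusted p 0.000546). Its values at 0 and 24 hr are as low as those of Opn1sw, so the size of its fall is not exact.

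Ptpn5, a protein tyrosine phosphatase gene, was at 390.2 and 452 at 12 hr and 79.0 and 76.0 at 24 hr (−2.44, standard error 0.24, adjusted p 0.00229). Cnr1, the gene of the type 1 cannabinoid receptor, was at 812 and 756 at 12 hr and 99.0 and 221 at 24 hr (−2.40, standard error 0.40, adjusted p 0.0144), with 24.3 and 31.4 at 0 hr. The difference for Cnr1 was −1.22 for the mean of its 2 probe sets. Robo2, which encodes a receptor of Slit proteins, fell at 1 of 3 probe sets (74.1 and 99.9 at 12 hr and 25.7 and 17.7 at 24 hr, −2.01, standard error 0.22, adjusted p 0.00306). Agtr1b, an angiotensin receptor gene, was at 127 and 343 at 12 hr and 58.4 and 42.0 at 24 hr (−2.08, adjusted p 0.0371), and its difference was −1.36 without replicate 2 of 12 hr. Nxnl2 (−2.15), the uncharacterized LOC102548260 (−2.03), and Nefm, which encodes the medium neurofilament subunit (−1.91), completed the 15 largest falls with genes taken up below.

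Genes of the amino acid response fell more often than they rose. ATF4 is a transcription factor whose translation rises when amino acids are short, and its targets import amino acids, make them, and charge tRNA with them. Of 24 measured genes of that response 7 fell and 1 rose, beside 2.91% and 3% of the 14217 genes measured, each by its brightest probe set. The median change of the 24 was −0.24, against 0.011 over all genes. Asns, which encodes asparagine synthetase, was at 1829.8 and 1895 at 12 hr and 365 and 299.6 at 24 hr. The replicates were tight, the groups lay far apart, and the log2 difference was −2.49 (standard error 0.20, adjusted p 0.000989), a 5.63-fold fall. Nupr1, a stress-induced chromatin protein gene, was at 1845 and 2645 at 12 hr and 554 and 218 at 24 hr (−2.67, standard error 0.41, adjusted p 0.0106), and its change was −1.99 without replicate 2 of 24 hr and −3.34 without replicate 1. Phgdh, which encodes the first enzyme of serine synthesis, was at 4097 and 4049.9 at 12 hr and 2035 and 1881 at 24 hr (−1.06, standard error 0.10, adjusted p 0.00201).

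Atf5, a transcription factor gene related to Atf4, was at 1204 and 1465 at 12 hr and 608 and 479.7 at 24 hr (−1.30, adjusted p 0.00646). Stc2, which encodes the secreted stanniocalcin 2, was at 166 and 179.98 at 12 hr and 96.3 and 97.5 at 24 hr (−0.84, adjusted p 0.0115). Cebpb (−0.59, adjusted p 0.0155), a transcription factor gene, and Shmt2 (−0.56, adjusted p 0.0177), a mitochondrial enzyme gene of serine and glycine metabolism, also fell. Atf4 itself was at 2019.9 and 2286 at 12 hr and 1964 and 1934 at 24 hr, with a 95% interval of its difference of −0.51 to 0.23. Chac1 and Ddit3, 2 targets linked to cell death, did not pass either. Chac1 was at 181 and 168 at 12 hr and 179 and 199.9 at 24 hr and Ddit3, which encodes CHOP, at 154 and 139.7 at 12 hr and 169 and 189.9 at 24 hr. Both had been far brighter at 2 and 4 hr (Chac1 2275 and 3141 at 2 hr). Gdf15, a secreted stress cytokine gene of the same list, went the other way, at 595 and 554 at 12 hr and 1142 and 2005 at 24 hr (1.40, standard error 0.27, adjusted p 0.0252).

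Among 21 measured amino acid transporters, 3 fell and 1 rose, beside 2.91% and 3% of all genes. Slc7a3, a transporter of arginine and lysine, was at 622 and 805 at 12 hr and 110.4 and 91.3 at 24 hr (−2.82, standard error 0.24, adjusted p 0.0013), with 933 and 1037 at 0 hr and 256 and 154 at 2 hr. Its course over the 5 times went down, up, and down again. Slc38a4 was at 308 and 404 at 12 hr and 193 and 151 at 24 hr (−1.05, adjusted p 0.00818), and the glycine transporter gene Slc6a9 at 292 and 312 at 12 hr and 177 and 194 at 24 hr (−0.70, adjusted p 0.0148). Slc1a4, which carries alanine, serine, and cysteine, rose from 1655 and 1789 to 3426 and 2949.9 (0.89, adjusted p 0.00654). Slc7a5, the light chain of the large neutral amino acid transporter, did not pass the test (−0.13, 95% interval −0.52 to 0.26), and neither did Slc7a11, the cystine transporter (−0.64, −1.29 to 0.004). Of 19 aminoacyl-tRNA synthetases 1 fell, Wars1 (−0.43, adjusted p 0.0471). Both 24 hr arrays lay below both 12 hr arrays for 14 of the 19 and above for 3, beside 26% and 26.5% of all transcripts. With the Actb ratio as a covariate 6 genes of the ATF4 list, 4 transporters, and no synthetase fell. Without replicate 1 or 2 of 12 hr 3 and 2 genes of the ATF4 list fell, and 4 without either array of 24 hr.

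**Figure D2:**
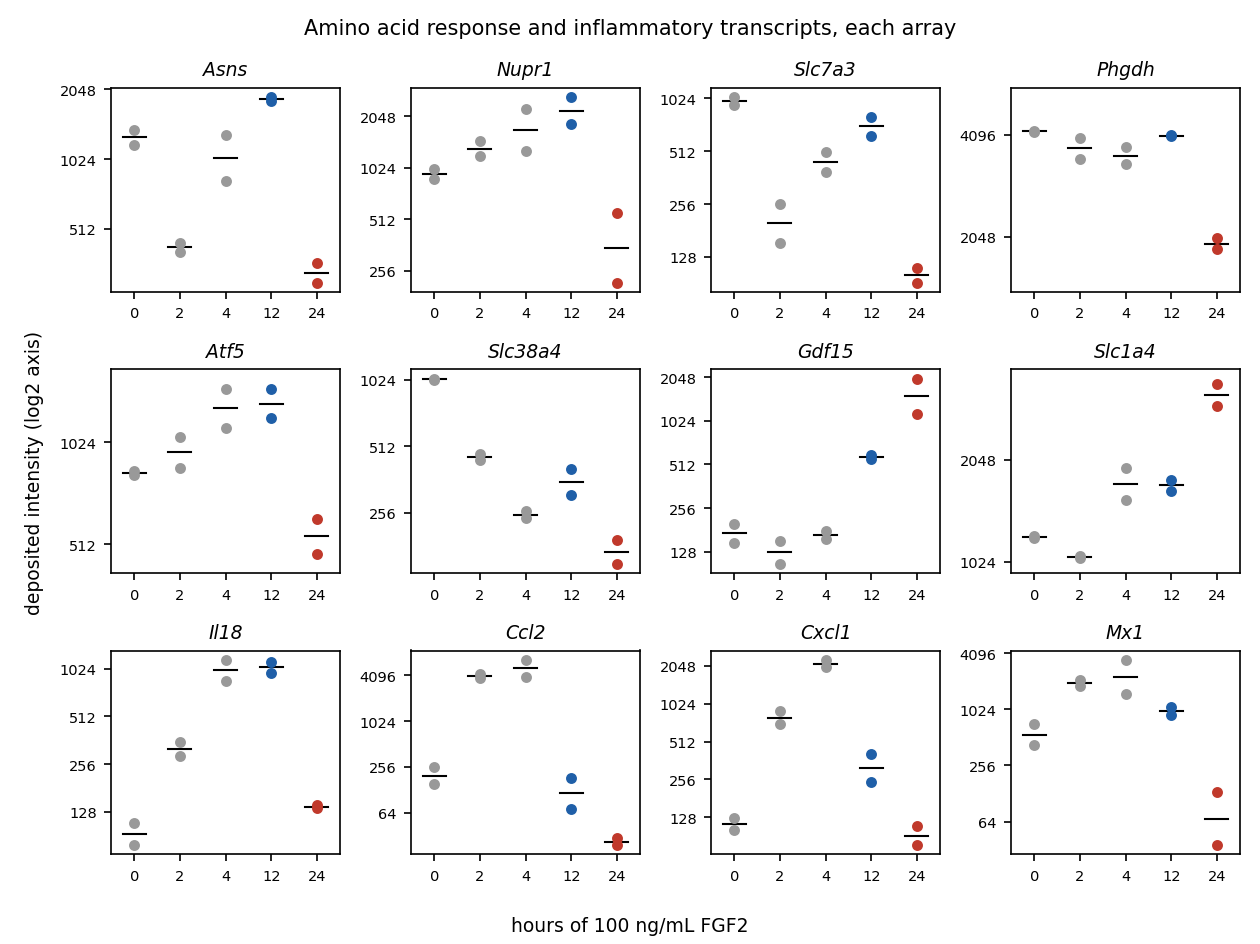
Deposited intensity (vertical axis, log2 scale) against hours of 100 ng/mL FGF2 (horizontal axis) for 12 genes, 1 point per array, 12 hr in blue, 24 hr in red, the other times in grey, with a bar at the geometric mean of the 2 arrays. Asns and Il18 stand high at 12 hr and low at 24 hr, Gdf15 and Slc1a4 are highest at 24 hr, and Ccl2 had fallen by 12 hr.

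Promoter sequence from RefSeq (rat build GRCr8) was searched for the amino acid response element TGATGNAA on both strands, in windows of 250 bases before to 50 bases after the start of each gene. Here and for the motifs below, a listed gene was counted if any of its windows held the motif. The share of all windows counts each window singly, 33469 for 27457 genes, so these are unlike measures. The motif stood in 4 of 22 genes of the ATF4 list with a window (18.2%), 3 of 17 transporters (17.6%), and 7 of 17 synthetases (41.2%), against 3.98% of all 33469 windows. Of the genes that fell, Nupr1 held it, and of those that rose, Slc1a4. The 250 bases before the start of both are shown, since the genes share the motif and went opposite ways. Capitals mark the motif, which in both lies on the other strand as TTGCATCA, and the sequences run 5′ to 3′ on the strand of the gene. That of Nupr1 is chr1:190645902-190646151 on the minus strand, with the motif starting 55 bases before the start. That of Slc1a4 is chr14:98761563-98761812 on the minus strand, with the motif starting 235 bases before.
Nupr1: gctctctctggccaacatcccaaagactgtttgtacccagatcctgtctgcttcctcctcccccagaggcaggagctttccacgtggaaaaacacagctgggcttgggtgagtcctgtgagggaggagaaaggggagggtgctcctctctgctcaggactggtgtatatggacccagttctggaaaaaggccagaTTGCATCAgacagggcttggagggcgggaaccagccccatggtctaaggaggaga
Slc1a4: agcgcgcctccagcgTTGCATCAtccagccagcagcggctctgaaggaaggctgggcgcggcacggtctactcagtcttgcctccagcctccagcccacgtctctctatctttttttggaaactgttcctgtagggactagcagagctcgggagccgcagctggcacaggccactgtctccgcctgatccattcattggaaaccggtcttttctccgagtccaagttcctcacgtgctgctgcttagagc
A match of letters is a description and not a site of binding. Of the genes that did not pass the test, Trib3, Chac1, and Fgf21 held the motif too.

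Inflammatory transcripts fell where they moved. Of 32 measured chemokines, cytokines, and secreted proteases 5 fell and none rose at an adjusted p under 0.05, beside 2.91% and 3% of all genes. Besides Il18, these were Ccl2, the monocyte chemokine gene, at 72.7 and 185 at 12 hr and 24.1 and 29.5 at 24 hr (−2.12, standard error 0.42, adjusted p 0.028), Cxcl1, a neutrophil chemokine gene, at 245 and 408 at 12 hr and 76.9 and 109 at 24 hr (−1.79, standard error 0.26, adjusted p 0.00803), and Ccl20 at 223 and 338 at 12 hr and 113 and 65.0 at 24 hr (−1.68, adjusted p 0.0353). The groups did not overlap for these 3 chemokines, but the 12 hr arrays of Ccl2 were far apart, and its difference was −1.45 without replicate 2 of 12 hr. Ccl2 had stood at 3902 and 6525 at 4 hr, far above its later levels. Plat, which encodes tissue plasminogen activator, went from 2036 and 2083 to 1201 and 1358 (−0.69, adjusted p 0.00697). Ptgs2, the inducible cyclooxygenase gene, was at 223 and 352 at 12 hr and 55.3 and 143 at 24 hr and did not pass (−1.66, adjusted p 0.0711). Of 25 interferon response genes 2 fell, beside the same 2.91%, namely Mx1 and Irf1 (416 and 472 at 12 hr and 313 and 288 at 24 hr, −0.56, adjusted p 0.0291). Ifit1, Isg15, Rsad2, and Oas1a, which are also induced by interferon, lay between 20.3 and 73.3 on all 4 arrays, and none passed (adjusted p of 0.921 or higher). Of the chemokine and cytokine list 3 and 1 genes fell without replicate 1 or 2 of 12 hr, and 3 and 4 without replicate 1 or 2 of 24 hr.

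Of 27 antioxidant and glutathione genes 2 fell, beside 2.91% of all genes. Hmox1, which encodes heme oxygenase 1, was at 873 and 1128 at 12 hr and 335 and 391 at 24 hr (−1.46, standard error 0.19, adjusted p 0.00598), and Mgst1, a microsomal glutathione transferase gene, at 14039 and 14442 at 12 hr and 8824 and 9166 at 24 hr (−0.66, adjusted p 0.0131). Slc2a3, the glucose transporter GLUT3 gene, was at 739 and 906 at 12 hr and 381 and 343 at 24 hr (−1.18, standard error 0.14, adjusted p 0.00387) and was the 1 of 29 genes of glycolysis and the hypoxia response to pass. A single call in that list is near the share of all genes.

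A few transcripts of the fiber membrane and bead filament rose. Of 13 measured, 3 rose, none fell, and 10 did not pass, beside 3% of all genes that rose. Among the 10, Lim2, a fiber membrane gene, differed by −0.17 and Gja1, the connexin 43 gene, by −0.087. Mip, which encodes the fiber water channel aquaporin 0, was at 319.7 and 390.2 at 0 hr, 165 and 52.8 at 12 hr, and 353 and 399.6 at 24 hr. The 12 hr arrays were far apart, but both lay below both 24 hr arrays, and the log2 difference was 2.01 (standard error 0.42, adjusted p 0.0326). It was 2.83 without replicate 1 and 1.19 without replicate 2 of 12 hr, and it did not pass without either 24 hr or either 0 hr array. Bfsp2, which encodes the bead filament protein phakinin, was at 3597 and 3799 at 0 hr, 1680.5 and 1526 at 12 hr, and 3029 and 2970.1 at 24 hr (0.91, standard error 0.19, adjusted p 0.0356). Tdrd7, an RNA granule gene known from cataract, was at 1236 and 1232 at 12 hr and 1634 and 1606 at 24 hr (0.39, adjusted p 0.0303). Bfsp1, which encodes filensin, was at 184 and 163 at 12 hr and 211 and 212 at 24 hr (0.29, adjusted p 0.291), and Gja3, the fiber connexin 46 gene, at 2862 and 2709.5 at 12 hr and 4998 and 4070.3 at 24 hr (0.70, adjusted p 0.1). Both moved the same way as Bfsp2 without passing the test. For Mip, Bfsp2, and Gja3 the level at 24 hr was near that of 0 hr and the level at 12 hr was lower. Of the 3 rises 1 passed without either 12 hr array and none without either 24 hr array. With the Actb ratio as a covariate none of the 3 passed (Bfsp2 at 0.56).

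The crystallin transcripts that passed went opposite ways. Over the 14 measured the median difference was 0.32. Both 24 hr arrays lay above both 12 hr arrays for 7 and below for 2, beside 26.5% and 26% of all transcripts. The 7 were Crygn, Cryab, Cryba1 (0.76), Crybb1 (0.67), Crybb2 (0.43), Crybb3 (0.34), and Crygs (0.67). The 2 were Crygd and Crygb (−1.45). Of 14 measured, Crygn rose, at 1881 and 1524 at 12 hr and 4174 and 4306 at 24 hr (1.32, standard error 0.29, adjusted p 0.0389), and Crygd fell, at 7657 and 6591 at 12 hr and 4377 and 3412 at 24 hr (−0.88, standard error 0.15, adjusted p 0.0151). With the Actb ratio as a covariate Crygn did not pass (0.85). Cryaa and Cryab, the alpha-crystallin genes, differed by 0.041 and 0.062, with intervals of −0.16 to 0.24 and −0.13 to 0.25. For other crystallins the 12 hr arrays stood apart. Cryga was at 727 and 90.3 on the 12 hr arrays and Crygb at 303 and 58.6, so that replicate 1 was several-fold above replicate 2. Replicate 1 of 12 hr was the higher of the pair for 13 of the 14 crystallins, beside 50.8% of all genes. Cryga, with 102 and 142 at 24 hr, had an interval of −3.05 to 0.88, which leaves its direction undetermined. The gamma-crystallins are close paralogs, and their probe sets may share signal.

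Lens transcription factors fell where they moved. Of 20 measured 7 fell and none rose, beside the 2.91% and 3% of all genes. Foxe3, the forkhead gene of the lens epithelium, was at 1131 and 1206 at 12 hr and 447 and 364 at 24 hr, with a log2 difference of −1.53 (standard error 0.18, adjusted p 0.00369). The replicates were close, the groups did not overlap, and the fall passed the test without each of the 10 arrays in turn and with the Actb ratio as a covariate. Tfap2a, which encodes AP-2 alpha, was at 919 and 1217 at 12 hr and 645 and 558 at 24 hr (−0.82, adjusted p 0.019), and Meis1, a homeobox gene, at 897 and 1136 at 12 hr and 651 and 394 at 24 hr (−0.995, adjusted p 0.0399). The fall of Meis1 was −0.63 without replicate 2 of 24 hr. Six3 was at 121 and 160.2 at 12 hr and 86.9 and 87.7 at 24 hr (−0.67, adjusted p 0.037), Sox2 at 3459 and 4113 at 12 hr and 2718 and 2294 at 24 hr (−0.60, adjusted p 0.0303), and Nfib, a nuclear factor I gene, at 1279.8 and 1412 at 12 hr and 890.3 and 826 at 24 hr (−0.65, adjusted p 0.0238). Etv1, an Ets factor gene, was at 3547 and 3759.6 at 12 hr and 2105 and 1950.2 at 24 hr (−0.85, adjusted p 0.0271). Sox2 fell at 3 of its 4 probe sets, and Nfib only at the brightest of its 3.

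The other measured factors of the list, among them Maf, Prox1, and Pax6, did not pass. Maf, which encodes c-Maf, was at 5794 and 5791 at 12 hr and 6602 and 6104 at 24 hr (0.13, 95% interval −0.18 to 0.44), Prox1 differed by 0.050 (−0.16 to 0.26), and Pax6 by −0.070 (−0.26 to 0.12). Pitx3 (−0.008), Gata3 (0.061), and Nfia (0.012) were also close to 0. With the Actb ratio as a covariate Foxe3, Tfap2a, and Nfib fell and the other 4 did not pass. Without replicate 1 or 2 of 12 hr 3 and 1 of the list fell, and without replicate 1 or 2 of 24 hr 2 and 1. A list of 40 measured genes that the study names held 1 gene that passed at its brightest probe set, Nfib. The study named them in its networks and among its AP-1, Ets, and BMP genes, chosen there on these same arrays. A single call in a list of that size is near the shares of all genes, 3% higher and 2.91% lower. Cnot6, of the same list, did not pass at its brightest probe set, but another of its 3 probe sets did. The list does not hold every gene the study names, and Etv1, which the study also names, is outside it.

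**Figure D3:**
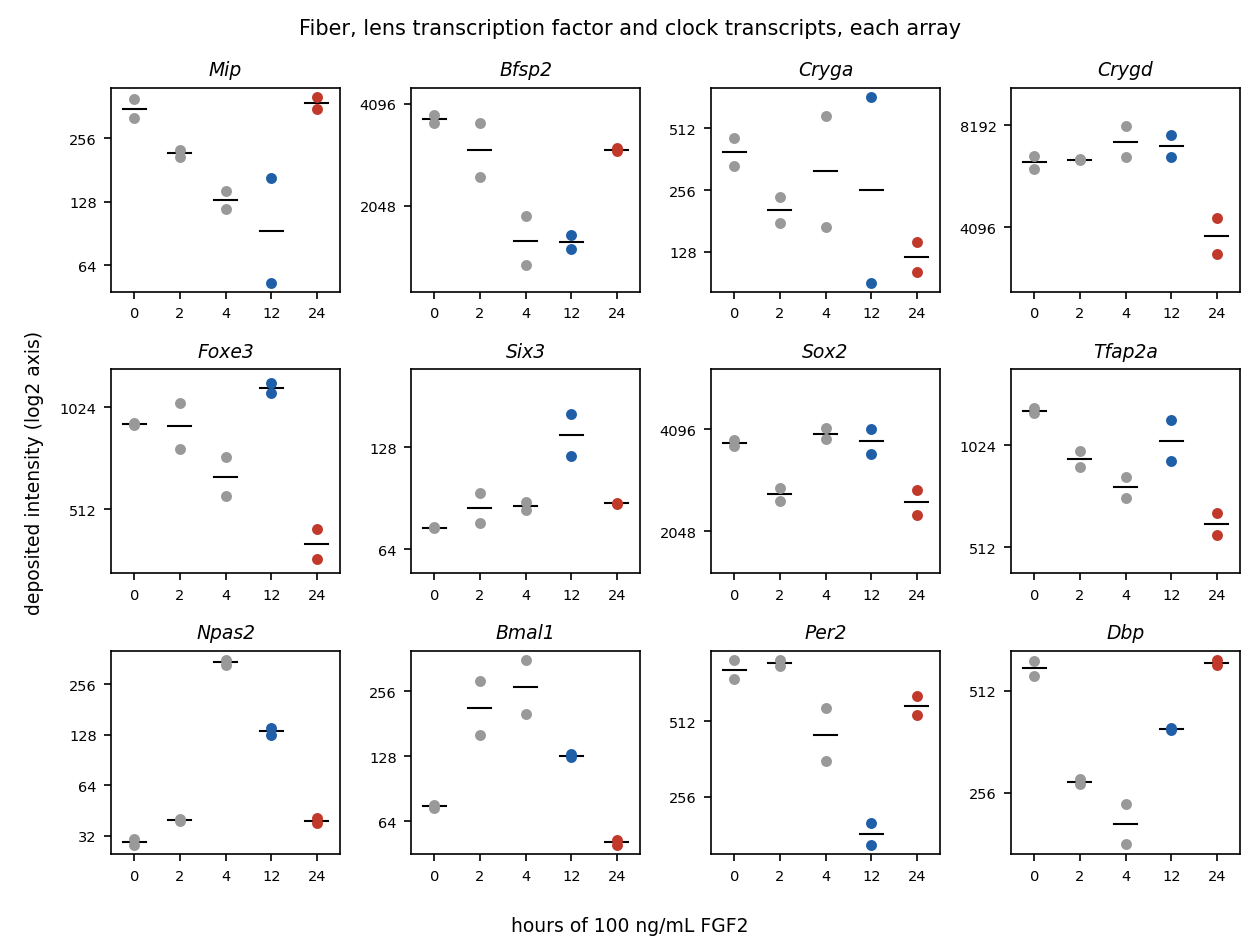
Deposited intensity (vertical axis, log2 scale) against hours of 100 ng/mL FGF2 (horizontal axis) for 12 genes, drawn as in the plot of stress and cytokine genes. Mip and Bfsp2 are higher at 24 hr, the 12 hr arrays of Cryga stand apart, Foxe3 is at its lowest at 24 hr, and Npas2 and Per2 move in opposite directions.

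Clock genes moved in both directions. The circadian clock is a loop in which BMAL1 with CLOCK or NPAS2 activates the Per, Cry, and Nr1d genes and the PAR bZIP genes Dbp and Tef, whose products feed back on it. Of 18 measured, 3 rose and 3 fell, beside 3% and 2.91% of all genes. Npas2 was at 333 and 357 at 4 hr, 140.2 and 128 at 12 hr, and 40.8 and 38.1 at 24 hr. Replicates were close at each of these times, and the log2 difference was −1.77 (standard error 0.094, adjusted p 0.000301). Bmal1 was at 131 and 127 at 12 hr and 52.7 and 49.7 at 24 hr (−1.33, standard error 0.29, adjusted p 0.0412), and Bhlhe40, a repressor of the loop, at 207 and 225 at 12 hr and 134 and 89.7 at 24 hr (−0.97, adjusted p 0.0256). Per2 rose from 201 and 164 to 644 and 544 (1.70, standard error 0.22, adjusted p 0.00514), with 902 and 754 at 0 hr, and the difference was 0.88 for the mean of its 2 probe sets. Dbp went from 397 and 393 to 628 and 611 (0.65, adjusted p 0.0272) and Tef from 301 and 275 to 437 and 442 (0.61, adjusted p 0.00934).

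Npas2 and Bmal1, of the activating arm, thus fell, as did the repressor gene Bhlhe40, whereas Per2, Dbp, and Tef rose. Of the other genes of the loop, Cry2 (0.34), Nr1d1 (0.40), Nr1d2 (0.49), Per1 (0.25), and Per3 (0.34) had positive differences and Cry1 a negative one (−0.31), none past the threshold. Clock differed by 0.10 (95% interval −0.17 to 0.36). With 5 times over 24 hr and no explants kept at 5 ng/mL, a rhythm cannot be told apart from a response. With the Actb ratio as a covariate 3 rose and 4 fell, while without replicate 2 of 12 hr none rose and 1 fell.

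The E-box CACGTG and the D-box TTATGNAA, which are bound by the factors of the loop, were searched in the same promoter windows, a choice made after the calls were seen. The E-box stood in 4 of 16 clock genes with a window (25%) against 6.42% of all windows, and the D-box in 1 of 16 (6.25%) against 3.66%. Tef, which rose, and Bhlhe40, which fell, both held the E-box, and Per2 held the D-box. Their 250 bases before the start are shown with the motif in capitals, because genes with the same letters moved in opposite directions. The E-box reads the same on both strands. The stretches are chr7:115206577-115206826 on the plus strand for Tef, chr4:143174200-143174449 on the plus strand for Bhlhe40, and chr9:99496994-99497243 on the minus strand for Per2, with the motif starting 198, 220, and 192 bases before the start.
Tef: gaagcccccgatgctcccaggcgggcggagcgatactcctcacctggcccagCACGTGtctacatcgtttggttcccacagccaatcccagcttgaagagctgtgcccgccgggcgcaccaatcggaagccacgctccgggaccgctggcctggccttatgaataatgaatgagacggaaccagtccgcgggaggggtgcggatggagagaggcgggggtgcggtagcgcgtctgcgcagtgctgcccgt
Bhlhe40: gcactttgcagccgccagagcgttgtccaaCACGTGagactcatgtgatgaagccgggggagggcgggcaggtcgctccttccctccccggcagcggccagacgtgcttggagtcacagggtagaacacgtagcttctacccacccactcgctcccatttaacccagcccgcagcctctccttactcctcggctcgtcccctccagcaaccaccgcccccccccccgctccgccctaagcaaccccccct
Per2: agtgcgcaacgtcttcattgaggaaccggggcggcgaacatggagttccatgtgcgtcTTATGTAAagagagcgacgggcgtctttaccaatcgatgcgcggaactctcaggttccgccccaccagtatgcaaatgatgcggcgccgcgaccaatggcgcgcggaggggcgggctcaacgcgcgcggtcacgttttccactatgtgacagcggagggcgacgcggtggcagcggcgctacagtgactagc
Of the 6 clock genes that moved, Npas2, Bmal1, and Dbp held neither motif in these windows.

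The inhibitor of cell division Cdkn1c rose. It encodes p57, which blocks cyclin-dependent kinases in cells that leave the cycle, and was at 4864 and 4937 at 0 hr, 2909 and 2803 at 12 hr, and 6277 and 5202 at 24 hr (1.00, standard error 0.15, adjusted p 0.00959). Rbl2, which encodes the retinoblastoma relative p130, went from 705 and 681 to 1006 and 935 (0.48, adjusted p 0.0199). These were the 2 of 16 cyclin-dependent kinase inhibitors, D cyclins, and pocket proteins that passed, beside 3% of all genes that rose. Cdkn1b, the p27 gene, differed by −0.14 (95% interval −0.46 to 0.19) and Cdkn1a, the p21 gene, by 0.24 (−0.25 to 0.73). Cdkn2b was at 670.2 and 845 at 12 hr and 366 and 191 at 24 hr (−1.51, adjusted p 0.105), and Ccnd1, the cyclin D1 gene, at 1669 and 1552 at 12 hr and 2178 and 3054 at 24 hr (0.68, adjusted p 0.0651). Neither passed, in spite of groups that did not overlap.

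The genes of replication and mitosis passed the test about as often as all genes did (3% rose and 2.91% fell). Of 34 measured genes of G2 and mitosis 1 rose, Racgap1, which encodes a regulator of cytokinesis, at 1247 and 1102 at 12 hr and 2207 and 2129 at 24 hr (0.89, standard error 0.13, adjusted p 0.00929). Ccnb2 was at 749 and 714 at 12 hr and 907 and 1707 at 24 hr, Hmmr at 361 and 332 at 12 hr and 451 and 722 at 24 hr, and Top2a at 730.04 and 705 at 12 hr and 589 and 808 at 24 hr, none past the threshold (adjusted p 0.139, 0.0787, and 0.958). Replicate 2 of 24 hr was the higher of the pair for 33 of these 34 genes, beside 50.6% of all genes, and without replicate 1 of 24 hr 4 of them rose. Replicate 1 of 12 hr was the higher of its pair for 28 of the 34, beside 50.8% of all genes. Of 35 genes of DNA replication 1 fell, Gmnn, which encodes the licensing inhibitor geminin, at 809 and 871 at 12 hr and 420.1 and 468 at 24 hr (−0.92, adjusted p 0.036). Its difference was −0.61 and did not pass with the Actb ratio as a covariate. Both 24 hr arrays lay below both 12 hr arrays for 18 of the 35 replication genes and above for 4. For the 34 genes of G2 and mitosis they lay below for 0 and above for 6. The shares of all transcripts were 26% below and 26.5% above. The motif TTTGAA stood in the windows of 19 of 28 mitotic genes (67.9%) against 18.3% of all windows, and TTTGGCGC or TTTCCCGC in 14 of 30 replication genes (46.7%), Gmnn among them, against 1.45%.

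Of 24 measured genes of FGF receptors, Ets factors, and feedback inhibitors 2 fell and none rose, beside 2.91% and 3% of all genes. Dusp5, a phosphatase of ERK in the nucleus, was at 626 and 901 at 2 hr, 168 and 164 at 12 hr, and 81.7 and 66.4 at 24 hr (−1.18, standard error 0.19, adjusted p 0.0123), and Etv1 fell as given above. Spry2 was at 3173 and 3192 at 12 hr and 3510.4 and 2959 at 24 hr (0.018, 95% interval −0.32 to 0.36), Dusp6 at 2864 and 3676 at 12 hr and 2353 and 2636 at 24 hr (−0.38, −0.92 to 0.15), and Etv5 at 925 and 919.8 at 12 hr and 987 and 884 at 24 hr (0.019, −0.39 to 0.43). These 3 were well above their 0 hr levels at both times (Spry2 603 and 447 at 0 hr). Of 28 immediate early genes Myc and Egr1 fell, beside the same 2.91%. Myc was at 63.2 and 44.9 at 0 hr, 199.6 and 155 at 12 hr, and 44.8 and 71.1 at 24 hr (−1.64, standard error 0.29, adjusted p 0.0189), and its 24 hr arrays overlapped those of 0 hr. Egr1 was at 2528 and 2369 at 0 hr, 7701 and 7586 at 12 hr, and 4405 and 5108 at 24 hr (−0.69, standard error 0.10, adjusted p 0.00841) and stayed above 0 hr. Fos (−0.13), Jun (0.053), and Junb (−0.064) did not pass (Fos 95% interval −0.55 to 0.29).

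Single genes of other signaling pathways moved, where 3% of all genes rose and 2.91% fell. A single call in lists of these sizes is near those shares. Nog, which encodes the BMP antagonist noggin, rose from 71.2 and 51.0 to 175 and 108 (1.19, adjusted p 0.0369) as the 1 of 28 measured BMP and activin genes, while Sostdc1, another antagonist, fell. Of 34 Wnt and Frizzled genes 2 rose and 2 fell. Wnt7a was at 223 and 221 at 12 hr and 644 and 409 at 24 hr (1.21, adjusted p 0.0455) and the Wnt antagonist Sfrp1 at 2715 and 2295 at 12 hr and 4299 and 3864 at 24 hr (0.71, adjusted p 0.0243). Wnt4, at 129 and 104 at 12 hr and 51.9 and 48.1 at 24 hr (−1.21, adjusted p 0.0254), and the receptor gene Fzd6, at 776 and 806 at 12 hr and 593 and 502 at 24 hr (−0.54, adjusted p 0.0246), were lower. Jag2, a Notch ligand gene, was at 93.2 and 77.6 at 0 hr, 274 and 275 at 12 hr, and 91.4 and 90.5 at 24 hr (−1.59, standard error 0.21, adjusted p 0.00559) and was the 1 of 19 Notch genes to pass. Its replicates nearly coincided at both times.

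Genes best known from neurons moved in both directions. Of 36 measured, 3 rose, 3 fell, and 30 did not pass, beside 3% and 2.91% of all genes. Both 24 hr arrays lay above both 12 hr arrays for 16 of them and below for 5, beside 26.5% and 26% of all transcripts. Nrcam and Scn3b rose as above, and Nefh, the heavy neurofilament gene, was at 90.3 and 86.4 at 12 hr and 238 and 177 at 24 hr (1.22, standard error 0.15, adjusted p 0.00458). Nefm, the medium neurofilament gene, was at 2172 and 3379.9 at 4 hr, 225 and 165 at 12 hr, and 41.01 and 63.7 at 24 hr (−1.91, standard error 0.36, adjusted p 0.0226), so the 2 neurofilament genes went opposite ways. Nlgn1 (−0.96, adjusted p 0.0179), a synaptic adhesion gene, and Dclk1 (−0.79, adjusted p 0.0134), which encodes a microtubule-associated kinase, also fell. For the mean of its 4 probe sets Dclk1 differed by −0.28. Scn3b was the 1 of 29 voltage-gated channel genes that passed.

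By their brightest probe sets, cadherins and integrins fell where they moved. Of 21 measured cadherins and protocadherins 4 fell and none rose, beside 2.91% and 3% of all genes. Cdh11 was at 631 and 931 at 12 hr and 265 and 279 at 24 hr (−1.50, standard error 0.19, adjusted p 0.0048) at its brightest probe set and differed by −0.65 for the mean of its probe sets. Fat3, a giant cadherin gene, was at 121 and 122 at 12 hr and 58.5 and 59.8 at 24 hr (−1.04, standard error 0.11, adjusted p 0.00256). Cdhr1, down since 0 hr (650.03 and 497), fell further, to 15.8 and 16.2 (−0.85, adjusted p 0.015), and Pcdh18 fell too (−0.51, adjusted p 0.0269). The 24 hr values of Cdhr1 are near those of Opn1sw, so the size of its late fall is not exact. Integrins, matrix, actin, and filament genes gave 1 or 2 calls a list, and a single call in lists of this size is near the share of all genes. Of 16 integrin genes Itga3 (−0.67, adjusted p 0.00929) and Itga7 (−0.83, adjusted p 0.015), which encode laminin receptor subunits, fell. Itgb5 did not pass at its brightest probe set (0.020), but another of its 3 probe sets passed in that same positive direction. Col4a4, a basement membrane collagen gene, was at 44.7 and 42.3 at 12 hr and 60.5 and 62.9 at 24 hr (0.50, adjusted p 0.0196) as the 1 of 39 matrix genes to pass. Tpm2, a tropomyosin gene, fell as the 1 of 23 actin and SRF targets (−0.98, adjusted p 0.023), and Syne2, which links the nucleus to the cytoskeleton, as the 1 of 17 intermediate filament genes and linkers (−0.39, adjusted p 0.0378). Atp1b2, a subunit of the sodium pump, was at 123 and 127 at 0 hr, 733 and 897 at 12 hr, and 429 and 343 at 24 hr (−1.08, adjusted p 0.00889), the 1 of 13 aquaporins and sodium pump genes that fell. Calr, which encodes the calcium-binding chaperone calreticulin, rose from 2091 and 2033 to 2658 and 2914 (0.43, adjusted p 0.0286) among 21 genes of the endoplasmic reticulum.

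In 8 lists no gene passed at its brightest probe set. Cnot6, of the miRNA processing list, differed by −0.081 there, but another of its 3 probe sets passed in the same direction. These were 28 genes of sterol and fatty acid synthesis, 30 of oxidative phosphorylation, 31 of ribosome biogenesis, 27 of autophagy and lysosomes, 19 of miRNA processing, 15 Eph receptors and ephrins, 14 of TGF-beta signaling, and 14 of the insulin-like growth factor system. Their median differences lay between −0.10 and 0.08. Changes in the sterol list ranged from −0.45 to 0.39, and those in the oxidative phosphorylation list from −0.18 to 0.28. In the latter both 24 hr arrays lay above both 12 hr arrays for 19 of 30 genes and below for 4, beside 26.5% and 26% of all transcripts. None of the 21 sterol genes with a promoter window held the sterol motif TCACNCCAC, against 1.12% of all windows.

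**Figure D4:**
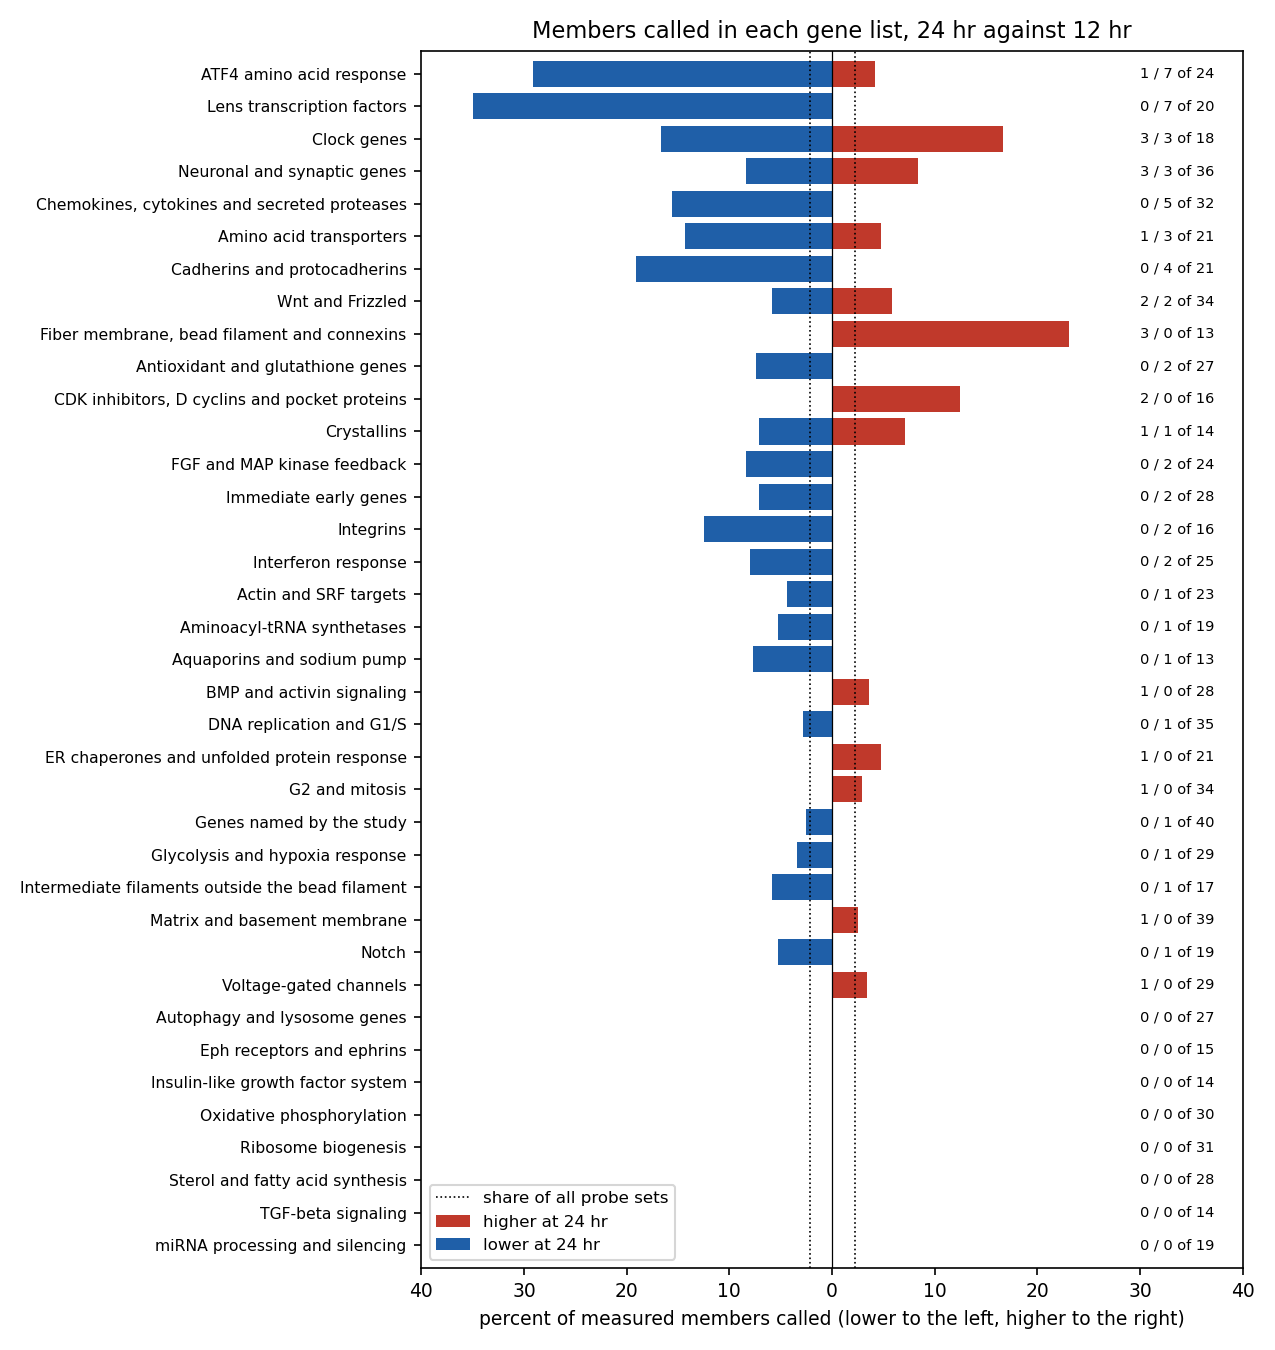
Percent of the measured genes of each list that were higher (red, to the right) or lower (blue, to the left) at 24 than at 12 hr, with the counts higher, lower, and measured beside each bar and dotted lines at the shares of all probe sets (2.22% and 2.12%). The bars count each gene by its brightest probe set, and the matching shares of all genes, 3% higher and 2.91% lower, lie beyond the dotted lines. The longest bars to the left are those of the lens transcription factors and the amino acid response, and the longest to the right that of the fiber membrane and bead filament list.

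The step from 12 to 24 hr was set beside the changes seen earlier on the 0, 2, and 4 hr arrays, with which it shares no array. At the mean of 2 and 4 hr, 12.3% of all transcripts were higher than at 0 hr and 12.9% lower. Of the 659 transcripts that fell from 12 to 24 hr, 283 (42.9%) had been higher early and 91 (13.8%) lower. Of the 689 that rose, 222 (32.2%) had been lower early and 91 (13.2%) higher. As shares of the early changes these were 7.43% of the early rises and 5.53% of the early falls. The shares in the opposite direction were thus above that of all transcripts, and those in the same direction near it. Il18, Hmox1, and Nefm are examples of early rises followed by a late fall, and Tef and Bfsp2 of early falls followed by a late rise.

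The same held for the change from 2 to 4 hr, in which 2.24% of all transcripts rose and 1.5% fell. Of the late falls 156 (23.7%) had risen from 2 to 4 hr, which is 22.5% of those rises, and 16 (2.43%) had fallen. Of the late rises 54 (7.84%) had fallen from 2 to 4 hr, or 11.6% of those falls, and 13 (1.89%) had risen. Npas2, Il18, and Jag2 rose at that early step (Jag2 from 93.3 and 62.0 at 2 hr to 229 and 316 at 4 hr) and fell at the late one. One fit of all arrays gives each transcript a single spread, so a transcript with little spread is more readily called in both. In separate fits of the 6 early and 4 late arrays, which share nothing, 34.7% of 976 late falls had been higher early and 23.7% of 944 late rises lower, beside 9.33% and 9.28% of all transcripts. The shares for the step from 2 to 4 hr were then 9.63% of the late falls and 2.33% of the late rises, beside 0.786% and 0.538%. The Actb ratio was lower at 2 and 4 hr (−2.13 to −1.37) than at 0 hr (−1.21 and −1.12) and lower at 24 than at 12 hr. With it as a covariate 15.9% of the late rises had been lower early, beside 7.27% of all transcripts in that fit.

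**Figure D5:**
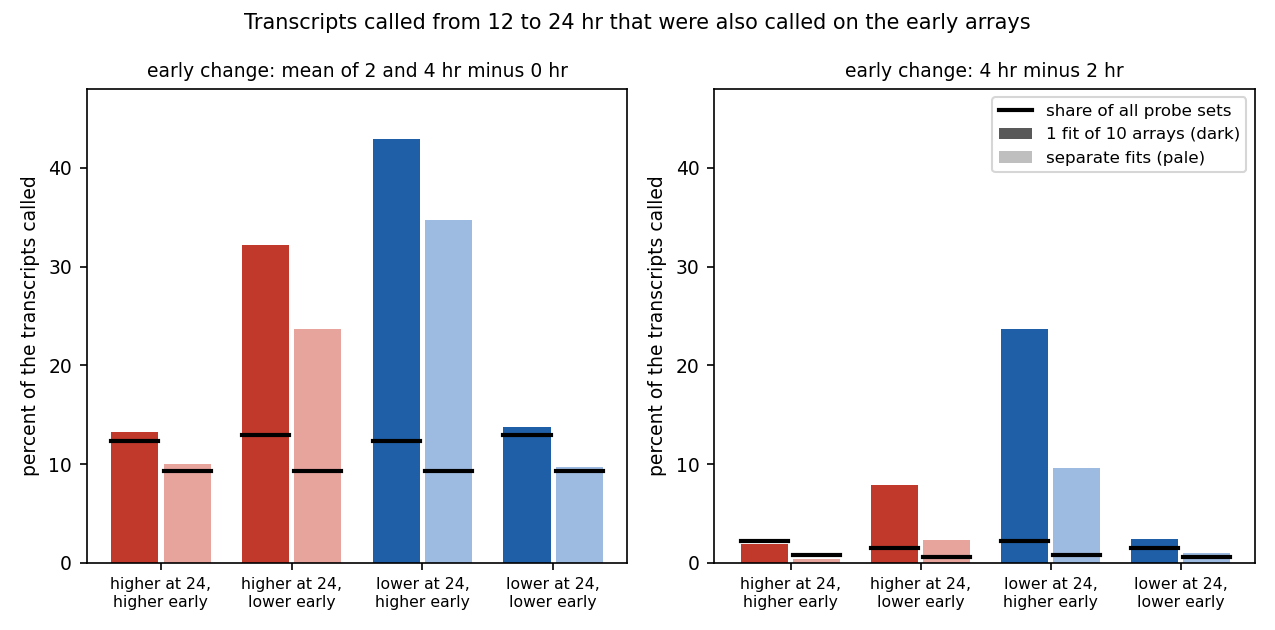
Percent of the transcripts that rose (red) or fell (blue) from 12 to 24 hr that were also higher or lower early, at the mean of 2 and 4 hr against 0 hr (left panel) and at 4 against 2 hr (right panel). Dark bars are from 1 fit of 10 arrays, pale bars from separate fits, and black lines mark the share of all probe sets, which the opposite-direction bars exceed (42.9% against 12.3% for late falls that were higher early).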

How the data were processed

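RNA from rat lens explants was amplified and hybridised to Affymetrix rat arrays. The authors deposited intensities on a linear scale, made by robust multi-array averaging (RMA; version not given in the sources used here). Here log2 intensities of the 10 arrays were fitted in limma 3.58.1 (R 4.3.3) with 1 mean per time point (5 residual degrees of freedom), control probe sets left out, and p-values were adjusted over 31042 probe sets. Of these 20826 carry 1 gene symbol, 436 several, and 9780 none. Probe sets were named from GEO's platform annotation updated through RefSeq. In gene lists each gene stood by its brightest probe set. Named genes were the 15 largest rises and falls with 1 symbol, an adjusted p under 0.05, and no overlap of arrays, plus members of the lists. The members and lists were chosen with earlier results of these data known. The 44 lists (7 of them markers) are those given in the report. The replicate numbers did not pair the arrays (r −0.15 between replicate differences at 12 and 24 hr). Array number limits the precision, and p-values measure the spread between 2 cultures per time. Scripts were tested on simulated data. Python 3.11.15 with pandas 2.3.3 and matplotlib 3.10.9 drew the figures. Alternatives covered the spread, the normalization, low intensities, the Actb ratio, and each array left out.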

Additional observations from a re-analysis of the deposited data

How the results depend on the processing

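The number of transcripts higher, lower, or different at 24 hr was 1487, 1451, and 2938 without the 2 and 4 hr arrays, and 1433, 1431, and 2864 with array quality weights. At an unadjusted p under 0.05 it was 2766, 2765, and 5531. By the methods' analysis of variance it was 2385, 2165, and 4550 unadjusted and 0, 0, and 0 adjusted, where limma gave 1348 adjusted. Without 1 array at a time the numbers ranged from 93 to 866, from 87 to 860, and from 180 (without replicate 2 of 12 hr) to 1715. With the replicate block 1174 transcripts differed. The crossed replicate block, chosen after seeing the data, gave 708, 683, and 1391. The share of late rises that had been lower early was 15.9% with the Actb ratio as a covariate (all transcripts 7.27%) and 18.7% to 33.5% without 1 array at a time (all 5.45% to 13.6%). That of late falls that had been higher early was 38.2% to 53.3% (all 6.03% to 12.8%). The share of late falls that had risen from 2 to 4 hr was 8.67% with array weights (all 0.883%), 9.63% in separate fits of early and late arrays (also chosen after seeing the data), and 12.6% to 35.4% without 1 array (all at most 2.7%). The share of late rises that had fallen from 2 to 4 hr was 19.7% unadjusted (all 8.5%), 2.16% with weights (all 0.557%), 2.33% in separate fits, and 3.12% to 10.1% without 1 array (all 0.767% to 2.93%). The cause of these shifts was not tested. No result reversed its direction under any of these alternatives. Of 92 named probe sets that passed, 66 passed with the Actb covariate, 88 in a fit of the 4 arrays alone, and 24 without each of the 12 and 24 hr arrays in turn. The 2 cultures per time, no explants kept at the low FGF2 concentration, and an Actb ratio that differed between the times limit what these values can show.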
